A study of Mus musculus with 12 samples.

Results

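The comparison described here sets 4T1 cells carrying a guide RNA against Cop1 beside 4T1 cells carrying a guide against Rosa26, with vehicle as the only treatment. It uses 6 of the 12 RNA-seq libraries of the series, taken by their labels: 2 libraries of cells with Cop1 sgRNA1, 2 of cells with Cop1 sgRNA2 and 2 of cells with the Rosa26 guide. 4T1 is a mammary carcinoma line from a BALB/c mouse, and Rosa26 is a mouse locus that can be cut without a known effect on the cell, so its guide serves as the control. The remaining 6 libraries are the same 3 populations after 24 hours with 20 ng/ml of interferon gamma (IFNγ), and serve to look at the vehicle changes a second time. They also share the fit, so the low-count filter and the spread behind every vehicle p-value and standard error come from all 12 libraries. The labels do not state where the guides cut, how Cas9 was supplied, whether each population was a pool or a clone, or whether replicates were separate cultures. P-values therefore measure only how far these samples scatter, which may be technical. Rosa26 is 1 population, and a difference between populations from another source cannot be told apart from the effect of the guide.

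COP1 is a ubiquitin ligase subunit that recruits transcription factors to a cullin complex built on DDB1 and DET1, often through the Tribbles pseudokinases TRIB1 and TRIB2. Known substrates include c-JUN, the ETS factors ETV1, ETV4, ETV5 and ETS2, and C/EBP proteins, so its loss acts on protein stability first and on mRNA through the factors that build up. In mammary and other tumour cells COP1 has been studied both as a brake on these factors and as a regulator of inflammatory gene output. RNA-seq reads only the transcript side of this, and none of the protein levels was measured here.

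The 6 libraries held between 20736546 and 32609717 gene counts, and over the 12 libraries replicates of a group varied by a coefficient of 3.21% beyond counting noise. A gene was called when its p in edgeR's quasi-likelihood test, adjusted by Benjamini-Hochberg over all 11904 tested genes, was under 0.05. Changes are log2 ratios of the mean of the Cop1 guide groups over Rosa26, followed by their standard error, and levels are CPM, that is counts scaled to a common TMM library size. The first principal component of the vehicle libraries held 46.5% of the variance and separated both Cop1 guides from Rosa26, and the second held 17.3% and separated sgRNA1 from sgRNA2. The 6 mammary epithelial markers summed to between 3977 and 4036 CPM in Cop1-guide libraries and between 3634 and 3746 CPM in Rosa26 libraries. The 16 fibroblast and endothelial markers summed to 17.9 to 23.9 CPM against 23.4 to 25 CPM, with Lum, Thy1, Kdr, Emcn and Cldn5 at 0 in all 6. The 20 leukocyte markers summed to 23.5 to 26.5 CPM against 30.6 to 30.7 CPM, with the T, B and NK cell genes Cd3e, Cd3g, Cd4, Cd8a, Ms4a1 and Nkg7 at 0, as were Adgre1 and Tyrobp. The part of these small marker differences in the results was not tested. In vehicle the change also followed transcript length: the median log2 change was 0.10 in the tenth of genes with the shortest transcripts (371 to 1371 bases) and -0.14 in the tenth with the longest (6937 to 123179 bases), among 9034 genes whose mean log2 CPM reached 3. Its part in the results below was not tested beyond a fit that corrects for length, added after the data were seen, whose list counts are given where they turn the leading direction or move a count by over 1.5 times.

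Cop1 mRNA was lower in every Cop1-guide library than in either Rosa26 library, and lower with sgRNA2 than with sgRNA1. The gene (chr1:159232320-159347640, plus strand, GRCm38) measured 59.1 and 63.1 CPM with sgRNA1, 34.5 and 34.7 with sgRNA2, and 89.7 and 98.2 with Rosa26. This is a log2 change of -1.03 ± 0.05 (adjusted p = 6.01e-21). In cells read in bulk, fewer cells with a transcript and less of it per cell cannot be told apart, and the mRNA level does not measure how much protein was left. The difference between the guides was -0.82 ± 0.06 on the log2 scale. Trib1 and Trib2, the adaptors that bring substrates to COP1, rose by 0.54 ± 0.04 and 0.60 ± 0.07. Trib1 had 130 and 134 CPM with sgRNA1, 127 and 131 with sgRNA2, and 89.1 and 90.3 with Rosa26. Trib2 had 36.5 and 37.8 CPM with sgRNA1, 33.6 and 37.9 with sgRNA2, and 24.2 and 23.8 with Rosa26. Trib3, a stress-induced member of the same family, fell, with 13.7 and 15.9 CPM with sgRNA1, 16.5 and 18.3 with sgRNA2, and 36.4 and 40.1 with Rosa26 (log2 change -1.26 ± 0.07). Of the 10 tested genes of the ligase complex and its adaptors 4 were called higher and 3 lower, the others being Rbx1 (log2 change 0.28 ± 0.04), a RING subunit of cullin ligases, Dda1 (log2 change 0.18 ± 0.04), a partner of DDB1 whose call ended without Rosa26 replicate 2 (adjusted p = 0.0785), and Ddb1 itself (log2 change -0.21 ± 0.02). Trib1, Trib2 and Trib3 did not overlap between Cop1-guide and Rosa26 libraries, and 8 of the 10 genes did not. Such separation, also stated for genes below, was common. It held for 17 of 45 respiratory chain genes and 12 of 24 cholesterol synthesis genes, few of them strongly changed. Naming called genes favours it, so it is no further support for them. With populations summed the calls of Cop1 (adjusted p = 0.413), Dda1 (0.14) and Ddb1 (0.0689) were lost.

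The response was broad and mostly small. Of 11904 tested genes, 4258 were called (35.8%), 1976 higher (16.6%) and 2282 lower (19.2%). Scaled by library totals alone, 1579 were higher and 2702 lower. The median size of a change over all tested genes was 0.14 on the log2 scale. Changes under 1.2-fold made up 2421 of the calls, 1274 lay between 1.2 and 1.5-fold and 290 between 1.5 and 2-fold. Changes of at least 2-fold numbered 273 (2.29% of tested genes), with 80 higher and 193 lower, and 60 reached 4-fold. With the 2 libraries of each population summed, so that the spread comes from the guides alone, 902 genes were called (356 higher, 546 lower), and 143 of the 273 genes kept their call. Genes named below that lost the call in that fit are listed with its adjusted p. Of the tested genes 412 had a mean under 10 counts over the vehicle libraries, and 5 of the higher and 40 of the lower calls are among them.

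**Figure D1:**
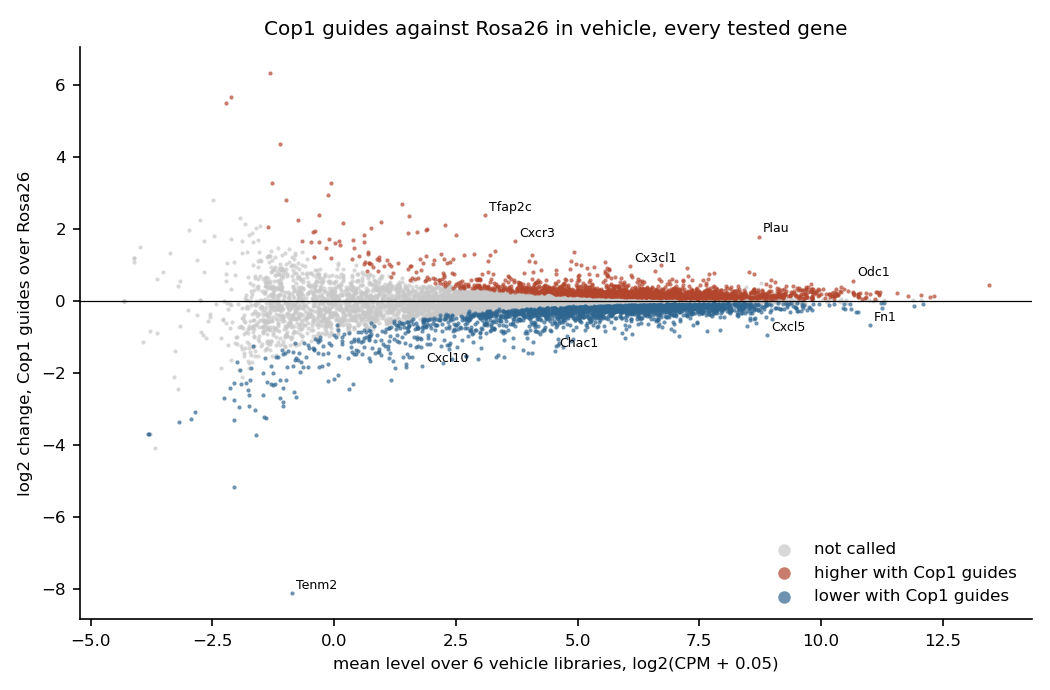
Log2 change with Cop1 guides over Rosa26 in vehicle (y axis) against the mean level over the 6 vehicle libraries, log2(CPM + 0.05) (x axis), 1 point per tested gene, red for called higher, blue for called lower and grey for not called. Of the 273 genes called at least 2-fold 193 lie below the line, and Plau stands apart among highly expressed genes.

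The genes that rose most, counting only those whose mean log2 CPM reached 3, coded for a transcription factor of early epithelium, a secreted protease, and receptors of the cell surface. Tfap2c encodes the transcription factor AP-2γ of luminal mammary and trophoblast cells, and measured 14.7 and 14.1 CPM with sgRNA1, 9.03 and 8.80 with sgRNA2, and 2.203 and 2.09 with Rosa26 (log2 change 2.396 ± 0.15; adjusted p = 1.55e-16). Plau encodes urokinase, the protease that turns plasminogen into plasmin at the cell surface, and had 638 and 613 CPM with sgRNA1, 465 and 497 with sgRNA2, and 157 and 160 with Rosa26 (log2 change 1.79 ± 0.03; adjusted p = 1.24e-36). Cxcr3, the receptor for interferon-induced chemokines and best known on T cells, had 22.7 and 19.1 CPM with sgRNA1, 12.9 and 13.2 with sgRNA2, and 5.82 and 4.67 with Rosa26 (log2 change 1.66 ± 0.12). In all 3 genes the Cop1-guide libraries lay above the Rosa26 libraries without overlap, and sgRNA1 libraries lay above sgRNA2 libraries. Itgb3, the integrin β3 chain that pairs with αv, had 13.4 and 14.6 CPM with sgRNA1, 10.6 and 10.9 with sgRNA2, and 4.53 and 4.89 with Rosa26 (log2 change 1.38 ± 0.13). The adhesion G protein-coupled receptor genes Adgrg3 and Adgrg1 rose by 1.35 ± 0.08 and 1.27 ± 0.15, with Adgrg3 at 45.0 and 42.6 CPM with sgRNA1, 31.4 and 34.1 with sgRNA2, and 16.1 and 13.7 with Rosa26. Eya2, a transcriptional coactivator and phosphatase of eye and muscle development, rose by 1.11 ± 0.08, Ngef, an exchange factor for small GTPases, by 1.103 ± 0.14, and Lypd3, a GPI-anchored surface protein related to the urokinase receptor, by 1.08 ± 0.11. Semaphorins, which are secreted or membrane-bound guidance cues, supplied 2 of the 12 genes, Sema7a (64.6 and 66.4 CPM with sgRNA1, 48.4 and 49.8 with sgRNA2, and 25.8 and 27.4 with Rosa26; log2 change 1.09 ± 0.06) and Sema6d (log2 change 1.099 ± 0.11). Ankrd33b, for an ankyrin-repeat protein, was the other gene of the 12 (log2 change 1.28 ± 0.11). Summing populations ended the calls of Tfap2c (adjusted p = 0.0783), Cxcr3 (0.0967) and Ngef (0.368). All 12 had their higher fitted level with sgRNA1, although Cop1 mRNA was lower with sgRNA2.

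The 12 largest decreases under the same limit on level held genes of varied function, and none lost its call in any alternative run. Adh7 and Cxcl3 fell most. Ddit3, which encodes the stress-induced factor CHOP, had 5.64 and 7.80 CPM with sgRNA1, 6.92 and 5.46 with sgRNA2, and 17.6 and 18.2 with Rosa26 (log2 change -1.49 ± 0.11; adjusted p = 2.29e-14). Chac1, a glutathione-degrading enzyme induced by the same pathway, had 15.1 and 11.98 CPM with sgRNA1, 16.8 and 15.8 with sgRNA2, and 40.3 and 38.2 with Rosa26 (log2 change -1.39 ± 0.07). Vegfc, the growth factor of lymphatic vessels, had 10.03 and 10.2 CPM with sgRNA1, 11.5 and 10.4 with sgRNA2, and 28.1 and 29.1 with Rosa26 (log2 change -1.44 ± 0.09; adjusted p = 1.85e-17). For each of these the Rosa26 libraries were the high ones, and no Cop1-guide library came near them. Nrp1, a co-receptor for VEGF and semaphorins, measured 10.2 and 9.21 CPM with sgRNA1, 9.51 and 9.59 with sgRNA2, and 24.9 and 24.7 with Rosa26 (log2 change -1.36 ± 0.10). Adam12, a metalloprotease of the disintegrin family, was lower (log2 change -1.22 ± 0.07), as was Ank2, an ankyrin that anchors membrane proteins to the cytoskeleton (log2 change -1.45 ± 0.09). Adh7, an alcohol and retinol dehydrogenase, had 5.24 and 6.44 CPM with sgRNA1, 6.78 and 8.72 with sgRNA2, and 19.7 and 20.1 with Rosa26 (log2 change -1.57 ± 0.11), and the neutrophil chemokine gene Cxcl3 had 7.02 and 7.89 CPM with sgRNA1, 5.09 and 4.64 with sgRNA2, and 17.5 and 17.8 with Rosa26 (log2 change -1.56 ± 0.10). Acot2 (log2 change -1.303 ± 0.13), a mitochondrial acyl-CoA thioesterase, Mfap3l (log2 change -1.29 ± 0.10) and Il18rap (log2 change -1.27 ± 0.07), an accessory chain of the IL-18 receptor, completed the 12 with Trib3.

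**Figure D2:**
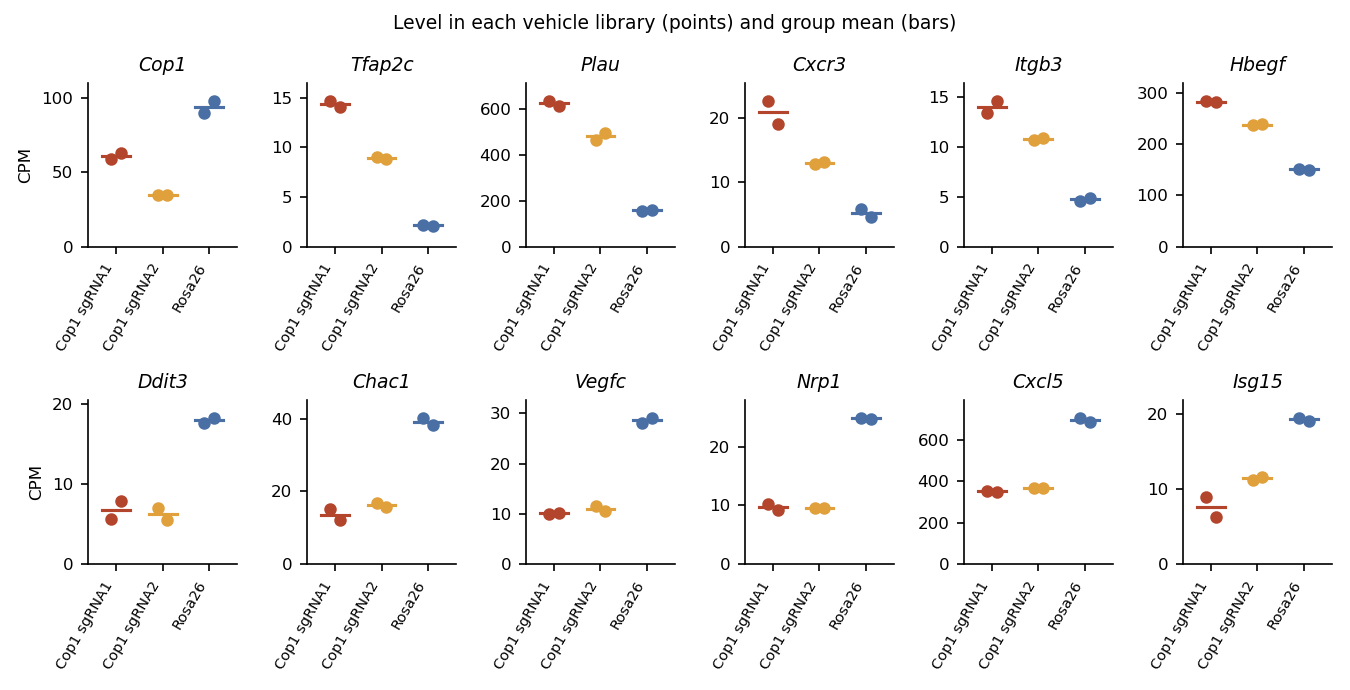
Levels in CPM (y axes, each from 0) of 12 genes in the 6 vehicle libraries, 1 point per library and a bar at the mean of the 2 libraries of a group, with Cop1 sgRNA1, Cop1 sgRNA2 and Rosa26 from left to right. Plau lies between 465 and 638 CPM in Cop1-guide libraries and at 157 and 160 CPM in Rosa26 libraries, and Chac1 lies between 11.98 and 16.8 CPM against 38.2 and 40.3 CPM.

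Genes of the integrated stress response and of amino acid supply fell together. In this response, kinases that sense missing amino acids, unfolded protein or viral RNA phosphorylate eIF2α, which favours translation of ATF4, and ATF4 with C/EBP partners switches on genes for amino acid synthesis, uptake and tRNA charging. Of 19 tested regulators 17 were lower and 0 higher, with a median log2 change of -0.51, where the median over all tested genes was -0.01 and 19.2% were called lower. Atf4 mRNA itself had 195 and 187 CPM with sgRNA1, 217 and 217 with sgRNA2, and 249 and 252 with Rosa26 (log2 change -0.30 ± 0.03), and its target Atf3 had 17.7 and 15.6 CPM with sgRNA1, 16.9 and 18.9 with sgRNA2, and 40.1 and 38.0 with Rosa26 (log2 change -1.17 ± 0.07; adjusted p = 2.01e-18). Nupr1, a stress-induced chromatin protein, had 21.7 and 21.6 CPM with sgRNA1, 24.0 and 21.2 with sgRNA2, and 44.1 and 47.2 with Rosa26 (log2 change -1.05 ± 0.07). These genes were high in Rosa26 libraries and low with both guides, and Atf5 alone among the called members had overlapping groups, at 32.3 and 29.9 CPM with sgRNA1, 48.4 and 47.3 with sgRNA2, and 46.4 and 45.3 with Rosa26 (log2 change -0.25 ± 0.06). Ppp1r15a, which codes for the phosphatase subunit that ends the response, fell (log2 change -0.70 ± 0.08). So did Eif2ak3, the eIF2α kinase PERK of the endoplasmic reticulum (log2 change -0.51 ± 0.08), and Sesn2, a leucine sensor (log2 change -0.93 ± 0.13). The kinase gene Eif2ak4, which senses uncharged tRNA, did not pass the test (log2 change 0.01 ± 0.06; adjusted p = 0.944). With populations summed, 12 of the 19 were called lower, and the calls of Atf4 (adjusted p = 0.0704) and Atf5 (0.783) were lost.

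Enzymes and transporters downstream of ATF4 were also mostly lower. Of 22 tested genes of serine, glycine, one-carbon and related amino acid metabolism 17 were lower and 3 higher (median -0.21). Gpt2, the mitochondrial alanine aminotransferase, had 14.8 and 14.4 CPM with sgRNA1, 20.5 and 22.1 with sgRNA2, and 34.2 and 39.6 with Rosa26 (log2 change -1.06 ± 0.07). Asns, asparagine synthetase, had 72.7 and 69.3 CPM with sgRNA1, 83.5 and 95.0 with sgRNA2, and 114 and 110 with Rosa26 (log2 change -0.49 ± 0.04). Ass1, the argininosuccinate synthetase of arginine synthesis, had 14.3 and 15.3 CPM with sgRNA1, 13.2 and 14.4 with sgRNA2, and 27.4 and 26.9 with Rosa26 (log2 change -0.93 ± 0.08). In all 3 the groups did not overlap, and Gpt2 and Asns were lower with sgRNA1 than with sgRNA2. Aldh18a1, which makes the precursor of proline, fell by 0.42 ± 0.04 on the log2 scale, and the formate enzyme gene Aldh1l2, at a low level, had 0.644 and 0.376 CPM with sgRNA1, 0.432 and 0.434 with sgRNA2, and 2.203 and 3.07 with Rosa26. Among 15 amino acid transporter genes 11 were lower and 1 higher (median -0.27). Slc7a11, the cystine importer, had 8.28 and 6.91 CPM with sgRNA1, 7.88 and 9.59 with sgRNA2, and 17.1 and 17.4 with Rosa26 (log2 change -1.07 ± 0.10). Slc1a4, a carrier of serine and alanine, had 17.1 and 17.8 CPM with sgRNA1, 20.9 and 21.4 with sgRNA2, and 32.3 and 30.7 with Rosa26 (log2 change -0.72 ± 0.07), and the heavy and light chain of the leucine carrier, Slc3a2 and Slc7a5, fell (log2 change -0.37 ± 0.03 and -0.41 ± 0.03). Among 20 cytosolic tRNA synthetases 12 were lower and 2 higher (median -0.15), led by the alanine enzyme gene Aars with 303 and 310 CPM with sgRNA1, 354 and 348 with sgRNA2, and 453 and 453 with Rosa26 (log2 change -0.47 ± 0.02), while Vars and Rars, for valine and arginine, rose by 0.26 ± 0.02 and 0.22 ± 0.03. Summing populations gave 6, 5 and 3 lower calls in these 3 lists, and no call for Gpt2 (adjusted p = 0.112), Asns (0.359), Slc1a4 (0.119) or Rars (0.0607).

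Promoter sequences, which RefSeq gives for GRCm38.p6 as the 250 bases before and 50 bases after a gene's start, were read for 9432 tested genes, on both strands and at the first listed start. The C/EBP-ATF response element, the composite site through which ATF4 acts and here searched as TGATGNAA, was in 18 of 287 promoters (6.27%) of genes lower by at least 1.5-fold, in 1 of 116 (0.86%) of genes higher by that much, and in 203 of the 9432 (2.15%). Among genes called lower, it was in 4 of 16 promoters of stress response regulators and 3 of 13 of serine, glycine and one-carbon enzymes. For amino acid transporters called lower it was in 2 of 7. Within the bases before the start alone the counts were 3, 3 and 1, so most promoters of these lists lacked it. Whether the element marks the genes that fell was not tested. The stretches below come from 4 genes named above and show the match, in capitals. Up to 40 bases on each side are given, within the bases before the start. These genes are shown because each holds the same 8 letters, and are not typical of their lists. A match is a description of the letters and not evidence of binding.
Chac1 (GRCm38.p6, chr2:119351009-119351096, plus strand): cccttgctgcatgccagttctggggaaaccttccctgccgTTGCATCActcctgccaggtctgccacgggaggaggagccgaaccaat
Atf3 (GRCm38.p6, chr1:191183396-191183483, minus strand): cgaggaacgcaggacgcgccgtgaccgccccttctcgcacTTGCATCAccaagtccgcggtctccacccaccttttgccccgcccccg
Nupr1 (GRCm38.p6, chr7:126625533-126625620, minus strand): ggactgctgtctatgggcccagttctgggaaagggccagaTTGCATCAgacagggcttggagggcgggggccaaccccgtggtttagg
Slc7a11 (GRCm38.p6, chr3:50443614-50443700, minus strand): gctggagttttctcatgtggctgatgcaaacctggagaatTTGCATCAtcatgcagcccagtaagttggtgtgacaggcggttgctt
All 4 match as TTGCATCA, the reverse complement of the searched form, and lie 186, 103, 103 and 40 bases before the start in the order printed. Slc7a11 holds a second match, left in lower case. The search was not limited to sites known to be used, and a promoter without these letters may hold others.

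Antiviral effector genes, which interferons induce, were lower in cells that had received no interferon. Not every immune list did this: MHC class I and II presentation genes had 6 higher and 6 lower of 27 tested. Those shares were 22.2% each, against 16.6% and 19.2% among all genes, with a median log2 change of 0.0. With the length correction 4 of them were higher and 8 lower, with a median of -0.03. Interferons act through STAT and IRF factors, and many genes for antiviral proteins carry an element made of 2 GAAA blocks, the interferon-stimulated response element, in front of their start. Of 42 tested antiviral effector genes 29 were lower and 0 higher, with a median of -0.46. Isg15, a ubiquitin-like modifier, had 8.92 and 6.29 CPM with sgRNA1, 11.2 and 11.5 with sgRNA2, and 19.4 and 19 with Rosa26 (log2 change -1.03 ± 0.09; adjusted p = 3.98e-12). Oasl2, a relative of the oligoadenylate synthetases, had 6.19 and 6.39 CPM with sgRNA1, 11.5 and 11.2 with sgRNA2, and 15.1 and 16.1 with Rosa26 (log2 change -0.89 ± 0.08). Samd9l, a translation inhibitor in infected cells, had 13.8 and 12.4 CPM with sgRNA1, 16.7 and 17.9 with sgRNA2, and 26.9 and 27.3 with Rosa26 (log2 change -0.84 ± 0.07). Parp14, a mono-ADP-ribosyltransferase, had 10.03 and 11.9 CPM with sgRNA1, 14.8 and 12.5 with sgRNA2, and 22.1 and 20.9 with Rosa26 (log2 change -0.83 ± 0.07). Both guides lay below Rosa26 in these 4 genes, and sgRNA1 lay below sgRNA2. Ifit1, which binds viral RNA ends, had 2.79 and 3.43 CPM with sgRNA1, 3.22 and 4.42 with sgRNA2, and 6.90 and 7.74 with Rosa26 (log2 change -1.09 ± 0.14). Rsad2, the antiviral enzyme viperin, had 0.552 and 0.987 CPM with sgRNA1, 1.87 and 1.60 with sgRNA2, and 2.74 and 3.34 with Rosa26 (log2 change -1.43 ± 0.22). Ifitm3, a membrane barrier to viruses, did not pass the test (log2 change 0.09 ± 0.03; adjusted p = 0.0503), and neither did Bst2, or tetherin (log2 change -0.06 ± 0.05; adjusted p = 0.354). With populations summed 3 of the 42 were called lower, in a fit in which the distance between the guides is the error. None of the 6 called genes named here passed in it, with adjusted p between 0.122 for Parp14 and 0.387 for Oasl2.

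**Figure D3:**
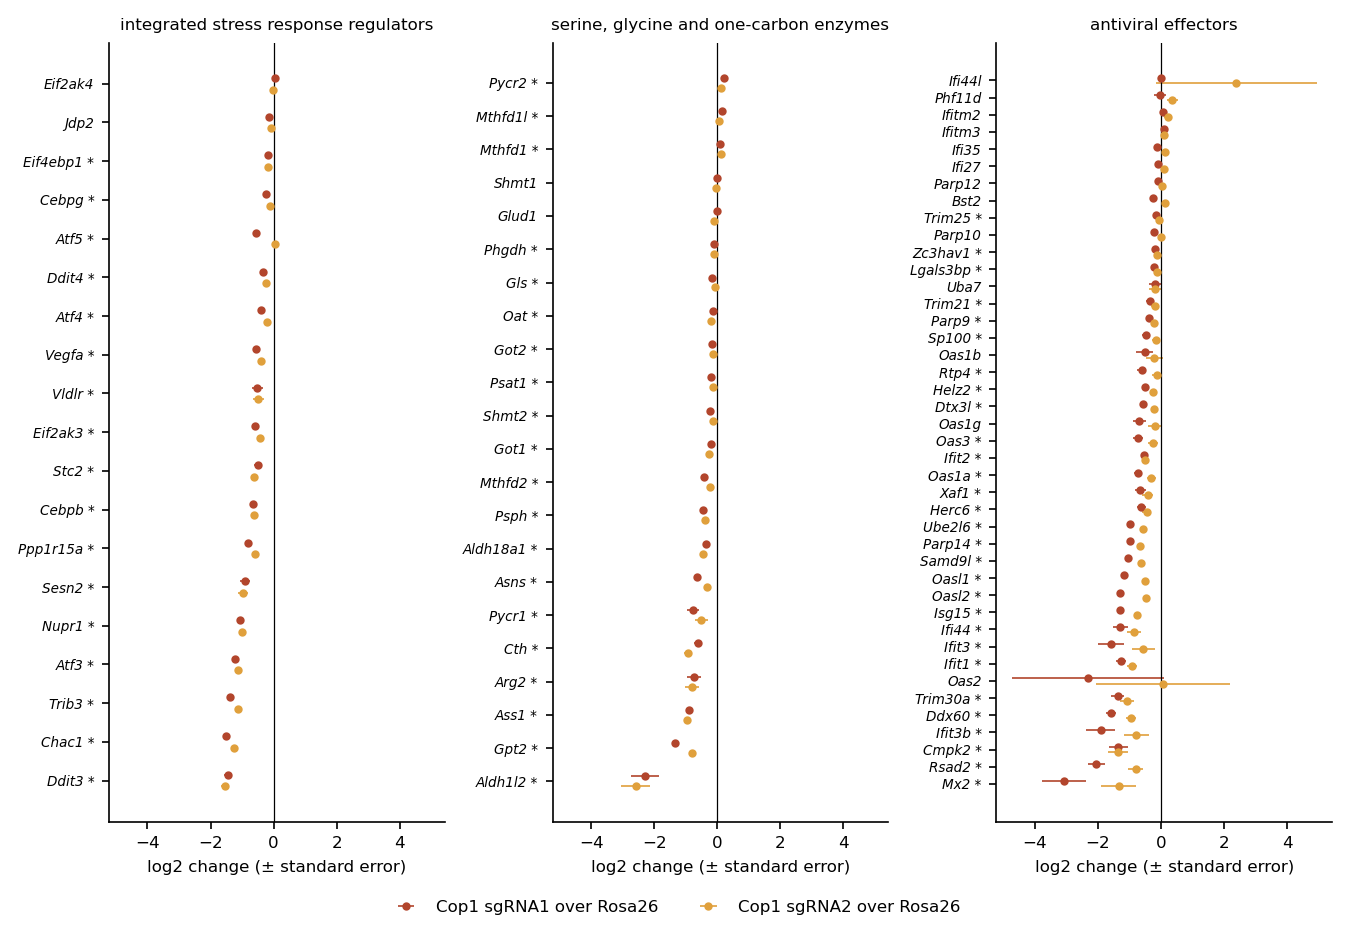
Log2 change over Rosa26 in vehicle (x axis) for each tested member of 3 gene lists, 1 row per gene, with sgRNA1 in red above sgRNA2 in yellow and bars for the standard error of the fit; an asterisk marks genes called for the mean of the guides. Called stress response genes lie at or left of 0 with sgRNA1, and the antiviral genes Oasl2 and Rsad2 lie further left with sgRNA1 than with sgRNA2.

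The guanylate-binding proteins and immunity-related GTPases, which attack vacuoles that hold microbes, had 12 of 17 tested members lower and 0 higher (median -0.62). Gbp2b had 5.27 and 4.89 CPM with sgRNA1, 6.82 and 4.99 with sgRNA2, and 9.06 and 10.4 with Rosa26 (log2 change -0.83 ± 0.09). Gbp3 had 3.56 and 3.66 CPM with sgRNA1, 5.33 and 5.16 with sgRNA2, and 6.69 and 8.23 with Rosa26 (log2 change -0.78 ± 0.09). Irgm1 had 5.43 and 6.44 CPM with sgRNA1, 7.01 and 9.97 with sgRNA2, and 11.3 and 10.4 with Rosa26 (log2 change -0.62 ± 0.10). Of the 17 members 8 had a mean under 10 counts in vehicle, and 4 of the 12 calls are theirs. The 9 with more had 8 lower, with a median of -0.60. With populations summed 6 were called lower, without Gbp3 (adjusted p = 0.176), Irgm1 (0.174) and Igtp (0.055). None of Gbp2b, Gbp3 and Irgm1 overlapped between the Cop1 guides and Rosa26. Igtp fell by 0.60 ± 0.12, a call that ended without Rosa26 replicate 1 (adjusted p = 0.0516). Among 20 sensors of foreign nucleic acid 8 were lower and 1 higher. Tlr3, the endosomal receptor for double-stranded RNA, had 23.4 and 24.1 CPM with sgRNA1, 27.4 and 27.8 with sgRNA2, and 41.5 and 42.5 with Rosa26 (log2 change -0.71 ± 0.05), and the cytosolic RNA sensors Ifih1 (MDA5) and Ddx58 (RIG-I) were lower (log2 change -0.65 ± 0.10 and -0.44 ± 0.08). Of 22 genes of interferon signal transduction 7 were lower (31.8%) and 3 higher (13.6%). Ifngr2, a chain of the IFNγ receptor, fell by 0.36 ± 0.07. Irf8, a factor best known from myeloid cells, had 39.3 and 40.5 CPM with sgRNA1, 33.5 and 36.6 with sgRNA2, and 17.6 and 18.9 with Rosa26 (log2 change 1.04 ± 0.06; adjusted p = 1.3e-18). The feedback gene Socs3 rose by 0.42 ± 0.07. Ifih1 (adjusted p = 0.0586), Ddx58 (0.0784) and Socs3 (0.134) lost their calls with populations summed. Irf8 thus stood opposite to the effector genes, with every Cop1-guide library above both Rosa26 libraries.

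The interferon-stimulated response element, searched as GAAA, any 2 bases and GAAA, was in 29 of the 287 promoters (10.1%) of genes lower by at least 1.5-fold, in 0 of the 116 of genes higher by that much, and in 292 of all 9432 (3.10%). It was in 14 of 34 antiviral effector promoters (41.2%) and in all 10 promoters read for guanylate-binding proteins and immunity GTPases. Among antiviral effectors called lower it was in 10 of 25 promoters, a share no larger than among all 34. Ribosomal protein genes, with 45 of 56 called higher and each by under 1.5-fold, had it in 6 of 43 promoters. Whether the element marks the genes that fell was not tested. The matches nearest to the start in 4 of the genes that fell are printed in capitals, as an example of this promoter class.
Isg15 (GRCm38.p6, chr4:156200835-156200924, minus strand): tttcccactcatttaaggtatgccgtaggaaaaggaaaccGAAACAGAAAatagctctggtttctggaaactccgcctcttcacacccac
Cxcl10 (GRCm38.p6, chr5:92349053-92349139, minus strand): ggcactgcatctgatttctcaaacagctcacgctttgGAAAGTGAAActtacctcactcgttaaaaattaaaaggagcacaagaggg
Ifit1 (GRCm38.p6, chr19:34640764-34640853, plus strand): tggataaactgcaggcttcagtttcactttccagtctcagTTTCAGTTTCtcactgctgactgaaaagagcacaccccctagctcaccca
Gbp3 (GRCm38.p6, chr3:142559965-142560043, plus strand): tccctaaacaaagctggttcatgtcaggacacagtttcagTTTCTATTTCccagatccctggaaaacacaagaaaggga
Isg15 and Cxcl10 match on the strand of the gene, Ifit1 and Gbp3 on the other one. They lie 57, 204, 76 and 30 bases before the start.

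Genes for chemokines and colony-stimulating factors moved in both directions, 10 higher and 10 lower of 25 tested. This list also holds the receptor gene Cxcr3 and Spp1. The balance was 7 and 11 with the length correction, and 3 and 8 both with populations summed and at a minimum change of 1.2-fold. Cxcl10, which attracts T cells through CXCR3, had 1.87 and 1.22 CPM with sgRNA1, 1.78 and 2.65 with sgRNA2, and 6.32 and 6.94 with Rosa26 (log2 change -1.801 ± 0.14; adjusted p = 4.01e-14), so ligand and receptor of this pair moved opposite ways. Cxcl5, a neutrophil attractant, had 354 and 347 CPM with sgRNA1, 366 and 369 with sgRNA2, and 707 and 686 with Rosa26 (log2 change -0.96 ± 0.02; adjusted p = 6.51e-31). Cxcl16, a membrane-bound chemokine, had 93.9 and 90.8 CPM with sgRNA1, 107 and 109 with sgRNA2, and 178 and 179 with Rosa26 (log2 change -0.83 ± 0.03). In these genes the Rosa26 libraries were the higher ones without overlap. Cx3cl1, or fractalkine, which tethers monocytes and lymphocytes, rose, with 86.7 and 80.8 CPM with sgRNA1, 74.2 and 80.7 with sgRNA2, and 38.2 and 43.8 with Rosa26 (log2 change 0.98 ± 0.05; adjusted p = 1.24e-19). Among genes often studied in this tumour line, Csf1 fell by 0.28 ± 0.03, and Csf3 was called in opposite directions by the guides. Ccl2 did not pass the test (log2 change -0.45 ± 0.17, adjusted p = 0.0857). It was called lower under alternative processing, so its missing call depends on the run. Spp1, osteopontin, fell by 0.62 ± 0.03. Among complement and acute-phase genes, 13 in the test, 7 fell and 1 rose (median -0.98). C3, the central complement component, had 117 and 120 CPM with sgRNA1, 84.0 and 89.0 with sgRNA2, and 200 and 199 with Rosa26 (log2 change -0.98 ± 0.03; adjusted p = 1.43e-26), and the protease gene C1s1 had 2.45 and 2.82 CPM with sgRNA1, 2.69 and 2.602 with sgRNA2, and 8.69 and 8.81 with Rosa26 (log2 change -1.74 ± 0.11). Lcn2, an iron-scavenging acute-phase protein, rose by 0.28 ± 0.04, with overlapping libraries. Of 15 nitric oxide, prostaglandin and immunometabolic enzymes 8 were lower and 3 higher (median -0.51). Nos2, the inducible nitric oxide synthase, had 17.4 and 17.7 CPM with sgRNA1, 17.5 and 17.2 with sgRNA2, and 31.8 and 29.9 with Rosa26 (log2 change -0.82 ± 0.05). Ptgs2, cyclooxygenase-2, had 438 and 434 CPM with sgRNA1, 451 and 461 with sgRNA2, and 633 and 637 with Rosa26 (log2 change -0.51 ± 0.02). Ptges, which turns its product into prostaglandin E2, had 39.8 and 40.1 CPM with sgRNA1, 28.7 and 27.6 with sgRNA2, and 17.9 and 18.0 with Rosa26 (log2 change 0.90 ± 0.07). Among 32 NF-κB pathway genes 12 were lower and 1 higher, with Tnip1 at log2 change -0.40 ± 0.04 and the feedback inhibitor gene Tnfaip3 at log2 change 0.23 ± 0.03. Summing populations ended the calls of Csf3 (adjusted p = 0.86), C3 (0.141), Lcn2 (0.653), Ptges (0.162) and Tnfaip3 (0.1).

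Among the factor families that COP1 is known to degrade, C/EBP genes were called lower beyond the share of all genes. For ETS and AP-1 genes the share called lower was close to it. C/EBP genes were lower in 4 of 6 tested members (median -0.50), among them the stress-induced Ddit3 named above. The list is small, and 3 were called lower both with populations summed and at a minimum change of 1.2-fold. Cebpb had 66.8 and 58.4 CPM with sgRNA1, 68.5 and 60.02 with sgRNA2, and 103 and 93.6 with Rosa26 (log2 change -0.63 ± 0.05). Cebpd had 10.98 and 10.8 CPM with sgRNA1, 11 and 13.2 with sgRNA2, and 25.1 and 21.7 with Rosa26 (log2 change -1.02 ± 0.08), and in both genes the groups did not overlap. Of 17 ETS factor genes 4 were lower and 0 higher, a share close to the 19.2% lower among all genes. Ets2 had 77.3 and 74.2 CPM with sgRNA1, 89.2 and 93.9 with sgRNA2, and 135 and 136 with Rosa26 (log2 change -0.70 ± 0.04). Ehf, an epithelial ETS factor, had 18.3 and 19.4 CPM with sgRNA1, 23.9 and 23.1 with sgRNA2, and 43.9 and 47.1 with Rosa26 (log2 change -1.12 ± 0.06). Etv5 fell by 0.25 ± 0.06, and Etv4 did not pass the test (log2 change 0.01 ± 0.04; adjusted p = 0.931). Of 16 genes for AP-1 and related factors 3 were higher and 4 lower, shares close to those of all genes, and 1 and 4 with the length correction. Jun had 125 and 125 CPM with sgRNA1, 136 and 131 with sgRNA2, and 107 and 96.6 with Rosa26 (log2 change 0.34 ± 0.04). Junb had 215 and 213 CPM with sgRNA1, 218 and 222 with sgRNA2, and 307 and 288 with Rosa26 (log2 change -0.46 ± 0.03), a pair with opposite changes and no overlap in either. Etv5 lost its call with populations summed (adjusted p = 0.0644).

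Feedback genes of the MAPK cascade and EGF-family ligands were among the genes that rose. DUSP phosphatases, Sprouty and Spred proteins are transcribed when ERK is active and then restrain it. Of 17 tested 9 were higher and 3 lower (median 0.28), against 16.6% higher among all genes. Dusp6, the ERK phosphatase, had 252 and 246 CPM with sgRNA1, 229 and 230 with sgRNA2, and 144 and 142 with Rosa26 (log2 change 0.74 ± 0.03; adjusted p = 3.49e-23). Spry2 had 58.8 and 56.8 CPM with sgRNA1, 59.0 and 52.7 with sgRNA2, and 39.8 and 43.6 with Rosa26 (log2 change 0.45 ± 0.06). Dusp5 rose by 0.40 ± 0.05, and Dusp4 went the other way (log2 change -0.35 ± 0.03). Among 15 EGF receptors and ligands 4 were higher (26.7%) and 3 lower (20.0%), where 16.6% and 19.2% of all genes were. The list is small, so these shares are not far apart. Scaled by library totals alone, 4 were higher and 4 lower. The ligand gene Hbegf had 286 and 282 CPM with sgRNA1, 237 and 239 with sgRNA2, and 152 and 150 with Rosa26 (log2 change 0.78 ± 0.03; adjusted p = 1.68e-23). Tgfa, another ligand gene, had 127 and 123 CPM with sgRNA1, 107 and 110 with sgRNA2, and 78.2 and 81.1 with Rosa26 (log2 change 0.55 ± 0.04), and Areg, for amphiregulin, rose too (log2 change 0.46 ± 0.07). The receptor gene Erbb3 fell, with 18.9 and 16.9 CPM with sgRNA1, 22.1 and 22.5 with sgRNA2, and 32.2 and 31.1 with Rosa26 (log2 change -0.66 ± 0.07). Egfr, at 1.96 and 2.02 CPM with sgRNA1, 2.02 and 2.43 with sgRNA2, and 3.12 and 4.72 with Rosa26, was called lower (log2 change -0.89 ± 0.22), a call that ended without Rosa26 replicate 2 (adjusted p = 0.149) and with populations summed (0.0641). The 3 ligand genes lay above Rosa26 in all 4 Cop1-guide libraries, and Erbb3 lay below.

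Further proteases of the plasminogen system and metalloproteases rose beside Plau. Of 22 tested 9 were higher (40.9%) and 4 lower (18.2%), against 16.6% and 19.2% among all genes. Plaur, the receptor that holds urokinase at the membrane, had 227 and 228 CPM with sgRNA1, 203 and 202 with sgRNA2, and 145 and 141 with Rosa26 (log2 change 0.59 ± 0.03). Mmp3, stromelysin, had 502 and 505 CPM with sgRNA1, 349 and 370 with sgRNA2, and 243 and 247 with Rosa26 (log2 change 0.80 ± 0.03; adjusted p = 9.18e-25). Mmp9, a gelatinase, had 71.6 and 64.7 CPM with sgRNA1, 43.0 and 46.1 with sgRNA2, and 34.6 and 33.5 with Rosa26 (log2 change 0.70 ± 0.06). Serpine2, a serpin that inhibits such proteases, had 166 and 167 CPM with sgRNA1, 112 and 110 with sgRNA2, and 89.9 and 88.8 with Rosa26 (log2 change 0.61 ± 0.04). Adamts1, which cleaves proteoglycans and thrombospondin, fell, with 46.1 and 46.8 CPM with sgRNA1, 59.9 and 60.2 with sgRNA2, and 99.1 and 102 with Rosa26 (log2 change -0.93 ± 0.04). None of these 5 genes overlapped between Cop1-guide and Rosa26 libraries, which held for 15 of the 22 tested. Plaur, Mmp3, Mmp9 and Serpine2 had their higher values with sgRNA1. With populations summed 3 were called higher and 1 lower, without Mmp3 (adjusted p = 0.246), Mmp9 (0.313) and Serpine2 (0.397).

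The AP-1 site, searched as TGANTCA, was in 16 of the 116 promoters (13.8%) of genes higher by at least 1.5-fold, in 22 of the 287 (7.67%) of genes lower by that much and in 491 of all 9432 (5.21%). A full cyclic AMP response element, TGACGTCA, was in 1 of the 116, 9 of the 287 and 327 of the 9432 promoters, and the palindromic C/EBP site TTGCGCAA in 0, 0 and 25. The AP-1 site was in 5 of 16 promoters (31.25%) read for plasminogen activators and matrix proteases. Lists with 0 members higher had similar shares, 9 of 34 for antiviral effectors (26.5%) and 3 of 10 for guanylate-binding proteins and immunity GTPases. MAPK feedback genes, more often higher than lower, had it in 0 of 14 promoters. Plau has no entry in the table used. The matches are shown for 3 genes that rose.
Mmp3 (GRCm38.p6, chr9:7445736-7445821, plus strand): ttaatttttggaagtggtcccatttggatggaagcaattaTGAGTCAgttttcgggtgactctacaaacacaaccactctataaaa
Plaur (GRCm38.p6, chr7:24462374-24462460, plus strand): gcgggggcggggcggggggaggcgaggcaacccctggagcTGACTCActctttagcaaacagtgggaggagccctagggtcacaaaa
Sema4c (GRCm38.p6, chr1:36558382-36558443, minus strand): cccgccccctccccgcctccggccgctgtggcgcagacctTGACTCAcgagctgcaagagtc
They lie 40, 63 and 16 bases before the start. Sema4c, a membrane semaphorin, had 61.4 and 61.9 CPM with sgRNA1, 56.0 and 55.0 with sgRNA2, and 31.6 and 33.5 with Rosa26 (log2 change 0.85 ± 0.06).

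Matrix and junction genes were lower in the majority of those called, where 19.2% of all tested genes were called lower and 16.6% higher. Of 23 collagen, laminin and other matrix genes 14 were lower and 5 higher (median -0.23). Fn1, fibronectin, had 1708 and 1870 CPM with sgRNA1, 1708 and 1572 with sgRNA2, and 2667 and 2774 with Rosa26 (log2 change -0.67 ± 0.04). Thbs1, thrombospondin-1, had 177 and 177 CPM with sgRNA1, 204 and 223 with sgRNA2, and 341 and 340 with Rosa26 (log2 change -0.81 ± 0.03; adjusted p = 7.74e-25). Col12a1, a fibril-associated collagen, had 4.35 and 4.56 CPM with sgRNA1, 5.14 and 4.34 with sgRNA2, and 13.8 and 14.4 with Rosa26 (log2 change -1.62 ± 0.13). All 3 were low with both guides. Col6a1 went the other way, with 29.9 and 28.1 CPM with sgRNA1, 24.0 and 26.9 with sgRNA2, and 16.5 and 15.9 with Rosa26 (log2 change 0.75 ± 0.08). The median transcript of this list was 6091 bases, and with the length correction 12 were lower and 5 higher. Of 26 claudin, gap junction and desmosome genes 15 were lower and 3 higher (median -0.18), among them Tjp3, a tight junction scaffold, with 3.07 and 2.63 CPM with sgRNA1, 5.62 and 4.94 with sgRNA2, and 11.6 and 10.8 with Rosa26 (log2 change -1.52 ± 0.15). Dsp, desmoplakin, had 99.8 and 109 CPM with sgRNA1, 103 and 92.2 with sgRNA2, and 137 and 136 with Rosa26 (log2 change -0.44 ± 0.04). Cdh1, E-cadherin, had 338 and 332 CPM with sgRNA1, 370 and 371 with sgRNA2, and 484 and 498 with Rosa26 (log2 change -0.48 ± 0.02; adjusted p = 1.55e-19), while the simple-epithelium keratins Krt8 and Krt18 rose by 0.24 ± 0.02 and 0.25 ± 0.02 and Epcam by 0.30 ± 0.03. Mammary epithelial markers as a list had 9 higher and 7 lower of 21, and 7 higher and 8 lower when scaled by library totals alone, so no direction held for them. The mesenchymal genes had 2 higher and 2 lower of 12 (16.7% each), close to the shares of all genes. Of these, Cd44 rose by 0.35 ± 0.02, and Axl fell by 0.11 ± 0.02. Of 16 integrin chains 4 were higher and 6 lower, but 5 higher and 4 lower with the length correction, so no direction held. Itgb5, another partner of αv, fell, with 88.4 and 82.7 CPM with sgRNA1, 85.8 and 86.2 with sgRNA2, and 133 and 138 with Rosa26 (log2 change -0.65 ± 0.04), in contrast to Itgb3. Axl lost its call with populations summed (adjusted p = 0.274).

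Most ribosomal protein and proteasome genes were called higher, by small amounts. Of 56 tested cytosolic ribosomal protein genes 45 were higher and 0 lower, with a median log2 change of 0.24 and a range from 0.02 to 0.497. Rpl14 had 1542 and 1518 CPM with sgRNA1, 1551 and 1509 with sgRNA2, and 1231 and 1197 with Rosa26 (log2 change 0.33 ± 0.02; adjusted p = 2.5e-15). Rps15 had 1141 and 1113 CPM with sgRNA1, 1165 and 1107 with sgRNA2, and 911 and 888 with Rosa26 (log2 change 0.33 ± 0.03). Rps2, with overlapping libraries, did not pass the test (log2 change 0.05 ± 0.02; adjusted p = 0.0828). These are short transcripts, with a median of 959 bases, and with the length correction 39 were higher and 1 lower, with a median of 0.15. Of 31 constitutive proteasome subunits 26 were higher and 2 lower (median 0.18; 22 and 2 with the length correction). Psma5, of the core ring, had 232 and 225 CPM with sgRNA1, 216 and 215 with sgRNA2, and 182 and 182 with Rosa26 (log2 change 0.28 ± 0.03). Psmd14, the deubiquitinase of the lid, had 193 and 194 CPM with sgRNA1, 197 and 200 with sgRNA2, and 168 and 165 with Rosa26 (log2 change 0.23 ± 0.03). Nuclear-encoded respiratory chain genes had 10 higher and 4 lower of 45, but 4 higher and 13 lower with the length correction, and 6 higher and 3 lower without Rosa26 replicate 2. At a minimum change of 1.2-fold 4 ribosomal protein genes and 0 proteasome genes were called, and with populations summed 22 and 5, without Psmd14 (adjusted p = 0.0543). Reads of ribosomal protein genes may be shared with processed pseudogenes, and how such reads were counted is not given in the sources used here.

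Growth and metabolism genes gave mixed counts, where 16.6% of all tested genes were called higher and 19.2% lower. Of 31 MYC-linked and ribosome biogenesis genes 11 were higher and 6 lower. Odc1, the rate-limiting enzyme of polyamine synthesis, had 1990 and 1968 CPM with sgRNA1, 1593 and 1655 with sgRNA2, and 1216 and 1206 with Rosa26 (log2 change 0.57 ± 0.02; adjusted p = 1.43e-24), and Utp20, a processing factor for the small ribosomal subunit, fell by 0.37 ± 0.03. Of 34 G1/S and replication genes 11 were lower and 3 higher. Ccnd1, cyclin D1, had 1451 and 1437 CPM with sgRNA1, 1259 and 1274 with sgRNA2, and 1069 and 1077 with Rosa26 (log2 change 0.33 ± 0.02; adjusted p = 5.1e-17). Ccnd2 had 86.5 and 81.6 CPM with sgRNA1, 94.8 and 89.5 with sgRNA2, and 124 and 127 with Rosa26 (log2 change -0.51 ± 0.04), so the 2 D-type cyclins moved opposite ways without overlap. Of 33 lysosome and autophagy genes 17 were lower and 4 higher (median -0.10), with Ctsa, cathepsin A, at log2 change -0.45 ± 0.04 and Atp6v0d1, a subunit of the proton pump, at log2 change -0.53 ± 0.05. Of 20 genes of fatty acid synthesis 6 were lower and 1 higher (6 and 3 with the length correction), with the desaturase Scd2 at 1499 and 1496 CPM with sgRNA1, 1589 and 1640 with sgRNA2, and 1931 and 1946 with Rosa26 (log2 change -0.32 ± 0.02). Of 35 glycolysis and hypoxia genes 17 were lower and 4 higher, but 3 higher and 10 lower without Rosa26 replicate 2. Within NRF2 and antioxidant genes 9 were higher and 10 lower of 30. Hmox1, heme oxygenase, fell by 0.67 ± 0.07 and Srxn1, sulfiredoxin, rose by 0.41 ± 0.06. Odc1 lost its call with populations summed (adjusted p = 0.0823).

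Lists of developmental signalling genes gave calls in both directions, where 16.6% of all tested genes were called higher and 19.2% lower. Of 38 axon guidance genes 12 were higher and 11 lower, 10 and 14 when scaled by library totals alone, and 12 and 7 with the length correction. Besides the semaphorins named above, Sema3e fell by 0.50 ± 0.05. Of 18 Notch genes 4 were higher and 2 lower (6 and 1 with the length correction), with the ligand gene Dll4 at 76.1 and 74.7 CPM with sgRNA1, 56.2 and 58.5 with sgRNA2, and 48.8 and 46.6 with Rosa26 (log2 change 0.46 ± 0.06). The feedback gene Nrarp had 12.6 and 10.2 CPM with sgRNA1, 11.2 and 10.4 with sgRNA2, and 6.24 and 7.12 with Rosa26 (log2 change 0.74 ± 0.13). Of 23 YAP/TAZ factors and targets 11 were lower and 4 higher, against 19.2% lower and 16.6% higher among all genes. Their median transcript was 4328 bases, and with the length correction 8 were lower and 4 higher. The median log2 change of this list was -0.08 without that correction and -0.01 with it. Ccn2, connective tissue growth factor, led the decreases, with 45.7 and 46.4 CPM with sgRNA1, 57.0 and 56.3 with sgRNA2, and 86.4 and 88.1 with Rosa26 (log2 change -0.77 ± 0.05). Of 25 genes of the TGF-β and BMP pathway 9 were lower and 5 higher, with Id2, an inhibitor of basic helix-loop-helix factors, at 30.3 and 30.1 CPM with sgRNA1, 28.0 and 28.2 with sgRNA2, and 20.5 and 20.9 with Rosa26 (log2 change 0.49 ± 0.08). Of 25 WNT genes 7 were lower (28.0%) and 2 higher (8.0%). Wnt7a was among the lower ones (log2 change -0.28), while Wnt7b rose, with 250 and 244 CPM with sgRNA1, 241 and 257 with sgRNA2, and 190 and 198 with Rosa26 (log2 change 0.36 ± 0.03). Among death genes, Casp4, the sensor of cytosolic lipopolysaccharide, fell, with 1.502 and 1.03 CPM with sgRNA1, 1.44 and 1.52 with sgRNA2, and 4.24 and 3.29 with Rosa26 (log2 change -1.44 ± 0.21). Sema3e (adjusted p = 0.152) and Dll4 (0.455) lost their calls with populations summed. Plk2, a kinase gene of the p53 list, had 82.3 and 77.1 CPM with sgRNA1, 93.9 and 95.6 with sgRNA2, and 146 and 143 with Rosa26 (log2 change -0.73 ± 0.04).

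**Figure D4:**
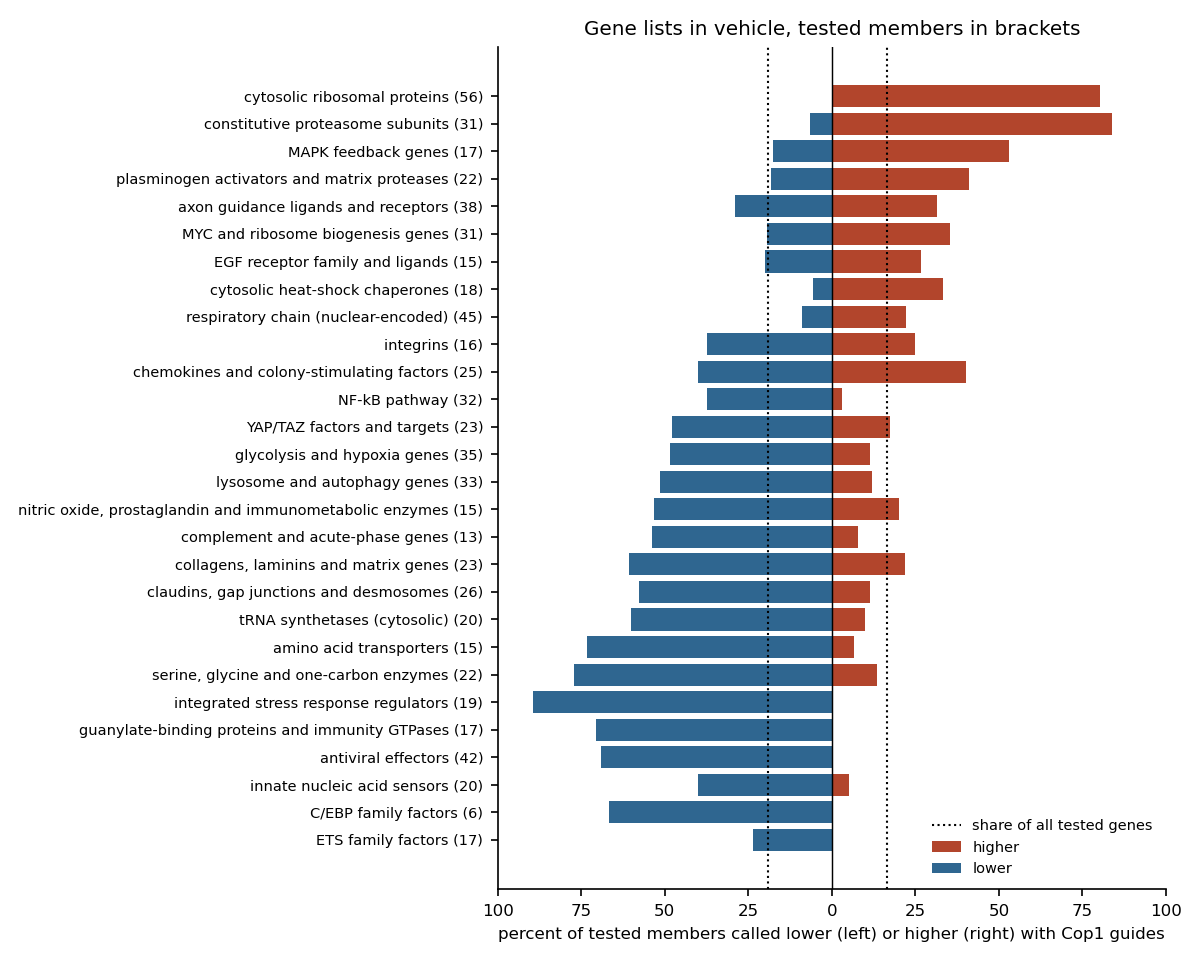
Percent of the tested members of each gene list that were called lower (blue, to the left) or higher (red, to the right) with Cop1 guides in vehicle, 1 row per list with the number of tested members in brackets; dotted lines mark the shares over all tested genes, 19.2% lower and 16.6% higher. The stress response list reaches 17 of 19 lower, and ribosomal proteins 45 of 56 higher. Respiratory chain genes turn to 4 higher and 13 lower with the length correction, and integrins to 5 higher and 4 lower. Axon guidance genes turn to 10 higher and 14 lower when scaled by library totals alone. The list of chemokines and colony-stimulating factors, 10 higher and 10 lower here, had 8 and 10 under that scaling.

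A few genes were close to absent in 1 arm, and were picked out after their values were seen. Tenm2, a teneurin adhesion receptor, had 0 counts in all 4 Cop1-guide libraries and 31 and 38 counts in the Rosa26 libraries, which puts it at least 49.2-fold lower with a floor of 3 counts over the group. With IFNγ it had 1, 1, 0 and 2 counts in Cop1-guide libraries and 16 and 21 in Rosa26 libraries. Stfa2, a stefin, had 4, 7, 4 and 8 counts in Cop1-guide libraries and none in either Rosa26 library, which is at least 3.58-fold higher. Soat2, a cholesterol esterifying enzyme, had 2, 1, 4 and 1 counts in Cop1-guide libraries against 20 and 18 in Rosa26 libraries. Stfa2 lost its call without either Rosa26 library and with populations summed (adjusted p = 0.112). All of these rest on few reads, and floors cover counting error only.

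The guides gave the same sign in nearly all of the genes that changed most. Against Rosa26, sgRNA1 called 3970 genes (33.4%) and sgRNA2 3476 (29.2%), comparisons that share the Rosa26 libraries. Of the 273 genes called at least 2-fold for the mean of the guides, 272 had the same fitted sign with each guide. Choosing genes by that mean, with Rosa26 libraries shared, favours such agreement, so it is no independent support. Between sgRNA2 and sgRNA1, 713 genes were called (5.99%), with a median size of 0.08 over all tested genes, and 448 of them were among the 4258 (10.5% of these). Without sgRNA1 replicate 1, sgRNA1 replicate 2 or sgRNA2 replicate 1 the count between guides was 349, 425 or 408. In all, 11 genes were called by the guides in opposite directions. Csf3, the granulocyte colony-stimulating factor gene, had 572 and 548 CPM with sgRNA1, 437 and 423 with sgRNA2, and 467 and 449 with Rosa26. Itgb2, an integrin chain of leukocytes, had 52.7 and 50.9 CPM with sgRNA1, 31.9 and 34.7 with sgRNA2, and 43.98 and 41.0 with Rosa26. Hspa5, the chaperone BiP, had 1628 and 1568 CPM with sgRNA1, 1315 and 1395 with sgRNA2, and 1455 and 1450 with Rosa26. For these 3 the Rosa26 libraries lay between the guides, so the mean of the guides says little about either.

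The vehicle changes were compared with those of the same populations under IFNγ, which share no library with them. With IFNγ 4828 genes were called (40.6%), 2362 higher (19.8%) and 2466 lower (20.7%), or 1770 and 3133 when scaled by library totals alone. Of the 4258 vehicle calls 2924 were called in the same direction (68.7% of the vehicle calls, 60.6% of the IFNγ calls), 59 in the opposite direction and 1275 had no call. Of the genes changed at least 2-fold in vehicle, 53 of 80 higher and 135 of 193 lower ones were called alike. The log2 change of Plau was 1.79 ± 0.03 in vehicle and 1.55 ± 0.03 with IFNγ, and that of Tfap2c 2.396 ± 0.15 and 2.33 ± 0.14 in the same order of treatments. Chac1 measured -1.39 ± 0.07 in vehicle and -1.39 ± 0.06 with IFNγ, and Vegfc -1.44 ± 0.09 and -1.49 ± 0.08. The cell populations are the same in both treatments, so this does not show that another Cop1-guide population would give these changes.

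The difference between the effect with IFNγ and the effect in vehicle was tested as an interaction, which called 683 genes (5.74%), 402 of them with a more positive effect under IFNγ (305 of 651 when scaled by library totals alone). Without Rosa26 replicate 2 or replicate 1 it called 353 or 453 genes, and with populations summed 0 by edgeR (563 at an unadjusted p under 0.05), while DESeq2 on the 12 libraries called 489. Irf8 rose by far less with IFNγ than in vehicle (0.10 ± 0.03; interaction -0.94 ± 0.07, adjusted p = 8.6e-14). Jun, higher in vehicle, was called lower with IFNγ (-0.26 ± 0.04; interaction -0.60 ± 0.06, adjusted p = 2.3e-10), and Dusp5 did the same (-0.27 ± 0.05; interaction -0.67 ± 0.07). Cxcl10 was lower in both, by less with IFNγ (-0.79 ± 0.05; interaction 1.01 ± 0.15, adjusted p = 4.81e-06). Stress response regulators were lower in 17 of 19 members in vehicle and in 18 with IFNγ, and antiviral effectors in 29 and 30 of 42, with 0 and 2 higher. Guanylate-binding proteins and immunity GTPases had 12 lower and 0 higher in vehicle, and 2 lower and 4 higher with IFNγ, and ribosomal proteins had 45 higher in both. MAPK feedback genes had 9 higher and 3 lower in vehicle, and 5 and 6 with IFNγ. Differences between these list counts were not tested.

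**Figure D5:**
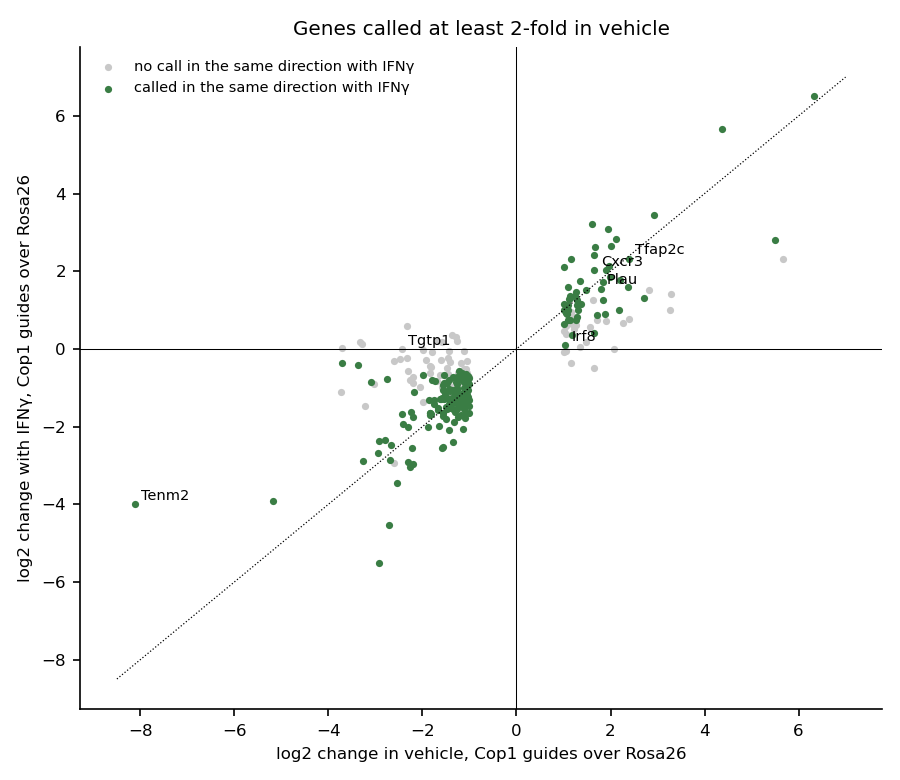
Log2 change with Cop1 guides over Rosa26 with IFNγ (y axis) against the same in vehicle (x axis) for the 273 genes called at least 2-fold in vehicle, green where the IFNγ libraries gave a call in the same direction and grey where they did not; the dotted line marks equal changes. Of the higher genes 53 of 80 and of the lower genes 135 of 193 are green, and Irf8 lies near 0 on the y axis.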

How the data were processed

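RNA was measured in 12 libraries of 4T1 cells made with a TruSeq RNA kit, per the labels' protocols, and the deposited values are raw counts per gene, which the authors made with STAR 2.4.0, HTSeq and the mm10 genome, per the submitters' processing notes, which also name DESeq2 1.10. For strand, annotation and multi-mapped reads, settings were not given in the sources used here. A row of totals was left out, 26 rows had date-like or duplicate names, and 5858 of 22298 genes had no count.

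CPM and all tests were computed here with edgeR 4.0.16 in R 4.3.3 (quasi-likelihood F test, robust, TMM scaling, filterByExpr with a minimum count of 10), fitting 6 group means to all 12 libraries and adjusting p-values by Benjamini-Hochberg over 11904 genes. The Cop1 effect is the average of both guides over Rosa26. Standard errors are the log2 change divided by the root of F. Each group has 2 libraries, and the fit pools the spread over all groups, so it assumes like spread. Scripts were tested on simulated counts with known changes.

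The members and gene lists were chosen with earlier results of these data known, so no list count is independent support. Genes named are Cop1, the 12 largest called changes in each direction among genes with a mean log2 CPM of 3 or more and one sign in both guides, up to 4 called and 2 uncalled members of each list and up to 6 genes with opposite guide effects. Outside that rule, chosen after their values were seen, are Trib2, Rbx1, Dda1, Atf4, Atf5, Ppp1r15a, Eif2ak3, Sesn2, Aldh1l2, Rars, Ifit1, Rsad2, Bst2, Etv4, Egfr, Mmp9, Serpine2, Sema3e, Tenm2, Stfa2 and Soat2. Sequences are RefSeq's for GRCm38.p6. Replicates 1 and 2 were treated as unpaired. Alternatives were other scalings, no filter, DESeq2 1.42.0, libraries of 1 treatment only, a replicate block, summed populations, a 1.2-fold minimum, a narrower promoter window, leaving out each vehicle library, and, added after seeing the data, a transcript length correction.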

Additional observations from a re-analysis of the deposited data

Results flagged for a closer look

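Differences of at least 1.5-fold between the guides in vehicle, called by edgeR's quasi-likelihood test, were found among the genes named above, as log2 of sgRNA2 over sgRNA1. Lower with sgRNA2 were Cop1 (-0.8163), Ngef (-0.7538), Tfap2c (-0.6923), Cxcr3 (-0.6867), Itgb2 (-0.6366), Mmp9 (-0.6172), Cxcl3 (-0.6059) and Serpine2 (-0.5878). Higher with sgRNA2 were Rsad2 (1.2465), Tjp3 (0.8716), Oasl2 (0.8523) and Atf5 (0.617). Rsad2, Tjp3, Oasl2 and Atf5 were lower with sgRNA1 than with Rosa26, and Tfap2c, Ngef, Cxcr3, Mmp9 and Serpine2 were higher with both guides than with Rosa26.

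Between treatments, the Cop1 effect with IFNγ minus the effect in vehicle differed by at least 1.5-fold for a further set of the named genes, by the interaction term. More positive with IFNγ were Irgm1 (1.0464), Cxcl10 (1.0093), C1s1 (0.9052), Gbp4 (0.8364), Gbp3 (0.7594), Igtp (0.6989) and H2-T23 (0.66), which encodes a nonclassical MHC class I molecule. More negative with IFNγ were Irf8 (-0.9374), Ifit1 (-0.6951), Dusp5 (-0.6697), Cdkn1a (-0.6501), Ptgs2 (-0.6001) and Jun (-0.5987). Cdkn1a encodes the cell cycle inhibitor p21. With the libraries of each population summed, none of the interaction differences passed (0 called, 563 at an unadjusted p under 0.05).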

How the results depend on the processing

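With the libraries of each population summed, calls fell to 902 in vehicle (899 of them among the 4258, in the same direction), 1443 with IFNγ, 618 shared by both and 0 for the interaction (563 at an unadjusted p under 0.05, and 489 by DESeq2 on all 12 libraries); the lone Rosa26 sum is then assumed to vary like the guides. At a minimum change of 1.2-fold 699 genes were called in vehicle, 768 with sgRNA1, 489 with sgRNA2, 25 between guides, 943 with IFNγ, 41 for the interaction and 451 shared. Leaving out 1 vehicle library gave 2919 to 4120 calls in vehicle, 349 to 686 between guides and 353 to 733 for the interaction. The length correction, added after seeing the data, left 3420 of the 4258 calls and reversed Rplp0 (-0.0543) and Lrp6 (0.107). The other scalings, no filter, DESeq2 and libraries of 1 treatment kept each count of calls within 1.5 times. Replicate numbers did not pair the samples: deviations of same-numbered libraries correlated between -0.0298 and 0.0446 over 15 pairs of groups, and the replicate block gave 4292 calls in vehicle. Of 229 called genes examined singly, 103 kept the call under every alternative run, 89 lost it with populations summed, 89 at the 1.2-fold minimum and 17 without some 1 library. Summing and the 1.2-fold minimum each moved 46 of 50 list counts over 1.5 times. With 250 bases before the start only, the promoter counts were 27 of 287 lower and 0 of 116 higher genes for the interferon element, 14 and 1 for the C/EBP-ATF element and 16 and 14 for AP-1. The low-count filter used all 12 libraries: 412 tested genes had a mean under 10 counts in vehicle, of which 5 were called higher and 40 lower, and genes below the filter were not tested.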
